A study of Rattus norvegicus with 26 samples.

Results

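BAF complexes are the SWI/SNF-type chromatin remodelers of mammalian cells. They use the energy of ATP hydrolysis to slide or evict nucleosomes, and they are built around 1 of 2 alternative ATPases, Brg1 (*Smarca4*) or Brm (*Smarca2*), together with core and accessory subunits. The Baf60 position is filled by one of the paralogs Baf60a (*Smarcd1*), Baf60b (*Smarcd2*) and Baf60c (*Smarcd3*), which bind transcription factors and bring the complex to target genes. Baf60c is known as the form of heart and skeletal muscle development. Described here are the transcripts of 10 BAF subunits, 10 of the 15466 genes with a name on the array: the 3 Baf60 genes, both ATPases, and the subunits Baf155 (*Smarcc1*), Baf47 (*Smarcb1*), Baf57 (*Smarce1*), Baf250a (*Arid1a*) and Baf53a (*Actl6a*). They were chosen by name as subunits of this complex, and each was measured by the probe carrying its name that was brightest on average over all arrays, with the gene's other probes as a check.

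The cells were rat multipotent adult progenitor cells (rMAPCs), Oct4-expressing clonal lines from bone marrow of female Fischer rats. Line Cl19 came from a donor aged 3 weeks and line 3c3 from embryonic day 18, and each line is a single clone. Both were cultured for up to 6 days in basal rMAPC medium with TGF-β and PDGF-bb, and RNA was taken on d0, d2, d4 and d6 with 3 arrays per line and day. The study describes the differentiation medium as free of serum. The reference group was RNA of primary smooth muscle on 2 arrays, which the labels call commercial rat aortic RNA and the study describes as RNA of cultured rat aortic smooth muscle cells, naming another supplier. The study's supplement calls the rMAPC replicates biological, but neither it nor the labels say whether these were separate cultures, and the p-values measure the spread between these samples. There was no arm without TGF-β, so time in culture, the growth factors and the culture without serum cannot be told apart. In bulk RNA neither can fewer cells of a type and less RNA per cell.

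Between 43.2% and 61.4% of the gene probes on an array were well above background, and no gene probe was saturated. Each slide carried the 4 days of 1 replicate of 1 line in the same order of positions, and the slides of Cl19, of 3c3 and of primary SMC were scanned on different days, so that levels of the lines cannot be told apart from scan day, nor day from position on the slide. The array labelled Cl19 d2 replicate 1 lay nearer to the 3c3 d2 arrays (root mean square log2 distance 0.38 to 0.54) than to the other Cl19 d2 arrays (0.88 and 0.92). It was kept under its label, and d2 results of Cl19 that change without it are given both ways. Leaving it out was a choice made after seeing the data. Since the array lies near 3c3, leaving it out tends to widen d2 differences between the lines. On the slide of 3c3 replicate 3 the mean signal of the negative controls was 62.6 to 82.0, against 44.9 to 50.04 on all other slides. Of 7 smooth muscle marker genes, 6 rose from d0 to d6 in both lines, and 8 of 9 proliferation genes fell in both. Both arrays of primary SMC detected all 7 smooth muscle markers well above background. Of the other cell types that RNA of a vessel could contain, 0 of 5 endothelial markers, 2 of 4 leukocyte markers and 4 of 4 fibroblast markers were well above background on both of those arrays.

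The probes that carry the findings on the Baf60 genes and on the ATPases are shown first, 5′ to 3′ in the sense of the mRNA and in lower case, because each value below is a value of such a short stretch and not of a whole transcript. For *Smarcd3* the first 30 of 60 bases are given and for the others all 60.

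Smarcd3, A_44_P1034937, on rn4 chr4:5959631-5959690: aggagctggagcagtcactagttgtgcgca
Smarcd1, A_44_P225268, on rn4 chr7:138447574-138447633: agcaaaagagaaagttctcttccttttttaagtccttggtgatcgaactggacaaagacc
Smarca4, A_44_P513038, on rn4 chr8:20808865-20808924: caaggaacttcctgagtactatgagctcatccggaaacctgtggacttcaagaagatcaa
Smarca2, A_44_P1021682, on rn4 chr1:230127296-230127355: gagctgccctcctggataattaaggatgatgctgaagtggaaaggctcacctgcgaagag

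The array's own annotation gives these positions and places all 4 on the plus strand. Exons and untranslated regions were not assigned, since no annotated genome of that build was used here. Whether a paralog's transcript could bind a probe was not tested. The longest run of identical bases between any Baf60 probe and a probe of another Baf60 gene was 7, and between the *Smarca2* probe and the brightest *Smarca4* probe it was 5. *Smarcd2*, *Smarca4* and *Arid1a* each had a second probe, and the other 7 genes had 1.

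*Smarcd3* was the member with the largest change in either line. Its normalized log2 intensity on d0 was 5.64, 5.86 and 6.04 in Cl19 and 6.67, 6.32 and 6.49 in 3c3. On d2 it was 9.90, 12.67 and 12.31 in Cl19, the first value being that of the array labelled Cl19 d2 replicate 1, and 10.46, 9.68 and 10.04 in 3c3. On d4 it was 13.52, 12.83 and 13.34 in Cl19 and 11.64, 11.36 and 11.78 in 3c3, while the d6 arrays of Cl19 read 12.26, 11.49 and 12.19 and those of 3c3 12.38, 11.28 and 11.63. Every array from d2 onward was above every d0 array in both lines. The change by d2 was 5.78 on the log2 scale in Cl19 (SE 0.48, 55.0-fold, limma adjusted p = 5.5e-08) and 3.57 in 3c3 (SE 0.48, 11.8-fold, adjusted p = 2.1e-05). By d6 it was 6.13 in Cl19 (adjusted p = 3.4e-09) and 5.27 in 3c3 (adjusted p = 4.5e-08). The study picked this gene from these same arrays, so its rise on them is not independent evidence. Outside the arrays, the study measured this transcript by quantitative RT-PCR in rMAPCs given TGF-β. It reported a smaller rise when TGF-β signaling was inhibited.

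The course of *Smarcd3* after d2 was not the same in shape. In Cl19 it was highest on d4 and then fell within each of the 3 slides, with steps of -1.35 to -1.14. In 3c3 the step from d4 to d6 was between -0.15 and 0.74 over the 3 slides, with 1 slide up and 2 down, so that d4 and d6 did not differ beyond the spread of the slides. The difference between the lines in the d2 change was 2.22 (SE 0.67) and did not pass the adjusted threshold (adjusted p = 0.24). Without the array labelled Cl19 d2 replicate 1 the d2 change in Cl19 was 6.65, the difference between the lines was 3.08, and that difference passed (adjusted p = 2.4e-04). That array was set apart after seeing the data for lying near 3c3, so its removal tends to widen this difference. The d6 changes of the lines differed by 0.86 (adjusted p = 0.48).

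Expression of the other Baf60 genes did not follow. *Smarcd1* stayed within 5.77 to 6.35 on all d0 and d2 arrays of both lines and fell later. On d4 it was 6.32, 4.90 and 5.59 in Cl19 and 5.62, 5.38 and 5.22 in 3c3, while the d6 arrays of Cl19 read 5.07, 4.14 and 5.06 and those of 3c3 5.23, 4.68 and 4.93. All d6 arrays lay below all d0 arrays of their line. The change by d6 was -1.21 in Cl19 (SE 0.28, adjusted p = 0.0011) and -1.28 in 3c3 (SE 0.28, adjusted p = 7.9e-04). Relative to the median change of all tested probes it was -1.01 and -1.07. The probe is dim and the gene has no other. Under the alternatives the fall was as small as -0.43 in Cl19 and -0.55 in 3c3, and it still passed.

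*Smarcd2* is a bright probe, and its fall was small and regular. In Cl19 it went from 13.97 ± 0.01 on d0 to 13.48 ± 0.03 on d6, and in 3c3 from 13.98 ± 0.18 to 13.57 ± 0.12 (SD, n = 3). The changes were -0.49 (adjusted p = 7.8e-04) and -0.40 (adjusted p = 0.0044). The gene's second probe did not follow, with -0.11 (adjusted p = 0.43) and 0.03 (adjusted p = 0.83), so the fall of *Smarcd2* rests on 1 of 2 probes. Across all tested probes the median d6 change was -0.20 in Cl19 and -0.21 in 3c3, and relative to it the brighter probe changed by -0.29 and -0.20.

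**Figure D1:**
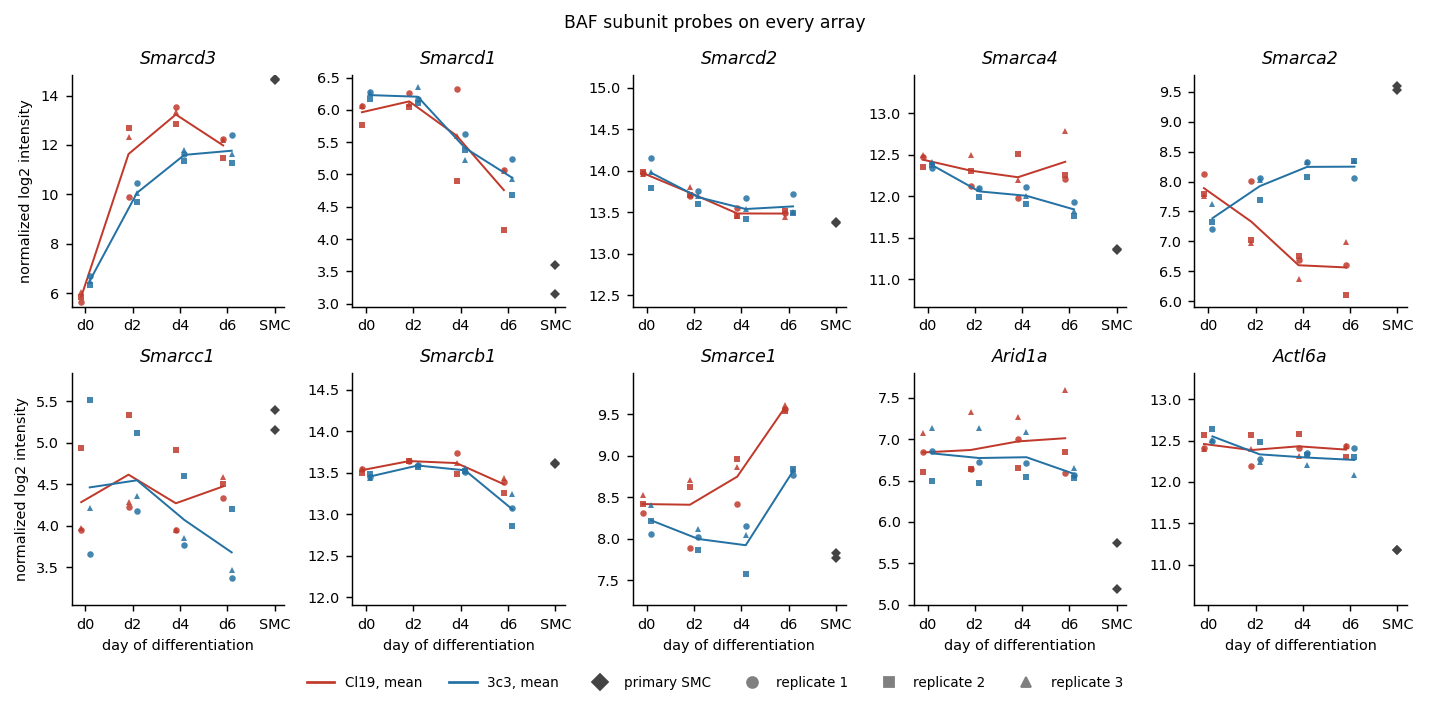
Normalized log2 intensity of the brightest probe of each of the 10 subunits (vertical axes, own scale per panel) against day of differentiation, with 1 symbol per array, replicates by symbol shape, lines through the group means and the 2 primary SMC arrays at the right. *Smarcd3* rises in both lines from 5.85 and 6.49 on d0, *Smarcd1* falls after d2, and the Cl19 and 3c3 lines of *Smarca2* cross.

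Within an array the *Smarcd3* probe could be set against a paralog's probe, which removes any factor common to the whole array. The change of this difference from d0 to d6 was 7.34 in Cl19 and 6.55 in 3c3 against *Smarcd1*, and 6.62 and 5.68 against *Smarcd2*. In an exact two-sided permutation test within lines over 400 assignments, p was 0.005 for each, the smallest that this design allows, and 0.0075 after Benjamini-Hochberg adjustment over 3 pairs of paralogs. A single line with 3 arrays against 3 cannot go below 0.1. That test permuted days across slides. When instead the signs of the within-slide differences were flipped, which keeps the pairing, p was 0.031 for each, before adjustment. That too is the smallest value the test allows. Since the study picked *Smarcd3* from these same arrays, these p-values are not independent evidence. These values show that the paralogs changed unequally and do not say which of them is more abundant.

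In 1 member, *Smarca2*, the change by d6 passed in both lines with opposite signs. *Smarca2*, the Brm ATPase, was 8.12, 7.79 and 7.76 on d0 in Cl19 and 6.60, 6.11 and 6.98 on d6. In 3c3 it was 7.21, 7.32 and 7.63 on d0 and 8.05, 8.35 and 8.34 on d6. The d0 and d6 arrays did not overlap in either line, with d6 lower on all 3 slides in Cl19 (-1.69 to -0.77) and higher on all 3 in 3c3 (0.71 to 1.03). The change was -1.33 in Cl19 (SE 0.24, adjusted p = 1.2e-04) and 0.86 in 3c3 (SE 0.24, 1.82-fold, adjusted p = 0.0062), and the difference between the lines in this change was -2.19 (SE 0.34, adjusted p = 1.4e-04).

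The divergence of *Smarca2* was visible before d6. On d2 it was 8.01, 7.01 and 6.97 in Cl19 and 8.06, 7.70 and 8.02 in 3c3, and on d4 6.68, 6.75 and 6.37 in Cl19 and 8.33, 8.08 and 8.32 in 3c3. All d4 arrays of Cl19 lay below all those of 3c3, whereas on d0 all Cl19 arrays lay above all 3c3 arrays, by 0.50 in the mean (adjusted p = 0.48). The high Cl19 value on d2 is the array labelled Cl19 d2 replicate 1, at the level of 3c3. The d2 changes were -0.56 in Cl19 (adjusted p = 0.11) and 0.54 in 3c3 (adjusted p = 0.14), and the d2 difference between the lines did not pass (adjusted p = 0.26). Without that array the Cl19 d2 change was -0.90 (adjusted p = 0.004) and the difference between the lines was -1.43 (adjusted p = 0.0063). Leaving it out was decided after seeing the data and tends to widen this difference. *Smarca2* was measured by 1 probe, so no other probe checks it. Other cell type markers also separated the lines by d6. The summed level of 4 fibroblast markers, on the log2 scale, went from 12.3 to 12.4 on d0 to 13.2 to 13.9 on d6 in Cl19, and from 12.1 to 12.3 on d0 to 10.6 to 11.7 on d6 in 3c3. Well above background on every d6 array were 4 of the 4 in Cl19 and 2 in 3c3. The 4 did not move alike. *Col1a1* rose in both lines (7.27 and 3.53) and *Pdgfra* fell in both (-1.93 and -1.77), whereas *Dcn* and *Lum* rose in Cl19 (2.68 and 7.05) and did not pass in 3c3 (0.06 and 0.53, adjusted p = 0.88 and 0.38). The summed level of 5 progenitor markers was 11.3 to 12.3 in Cl19 and 13.7 to 13.9 in 3c3 on d6. Levels of such markers do not show which cells were present, and their part in the *Smarca2* result was not tested.

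*Smarca4*, the Brg1 ATPase, did not pass in Cl19, at 12.44 ± 0.07 on d0 and 12.41 ± 0.32 on d6 (change -0.02, adjusted p = 0.91). In 3c3 it went from 12.34, 12.37 and 12.41 to 11.93, 11.76 and 11.82, with all d6 arrays below all d0 arrays (change -0.54, SE 0.15, adjusted p = 0.0063). The second *Smarca4* probe gave -0.08 (adjusted p = 0.73) and -0.62 (adjusted p = 0.0072). Relative to the median of all probes the 3c3 change was -0.33. The difference between the lines was 0.51 and did not pass (adjusted p = 0.12), but it did with the slide as a random block (adjusted p = 0.045). Without the slide of 3c3 replicate 3 the *Smarca4* fall in 3c3 was -0.51 and no longer passed (adjusted p = 0.07), as was the case for *Smarcd2* (-0.37, adjusted p = 0.073).

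Within arrays the difference of *Smarca2* from *Smarca4* moved from d0 to d6 by -1.30 for Cl19 and 1.397 for 3c3. Averaged over the lines these cancel to 0.05 (exact two-sided permutation p = 0.885 over 400 assignments), and that average therefore does not describe either line. The primary SMC arrays lay above all rMAPC arrays, at 2.94 and 3.01 relative to the mean of the 6 d0 arrays.

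**Figure D2:**
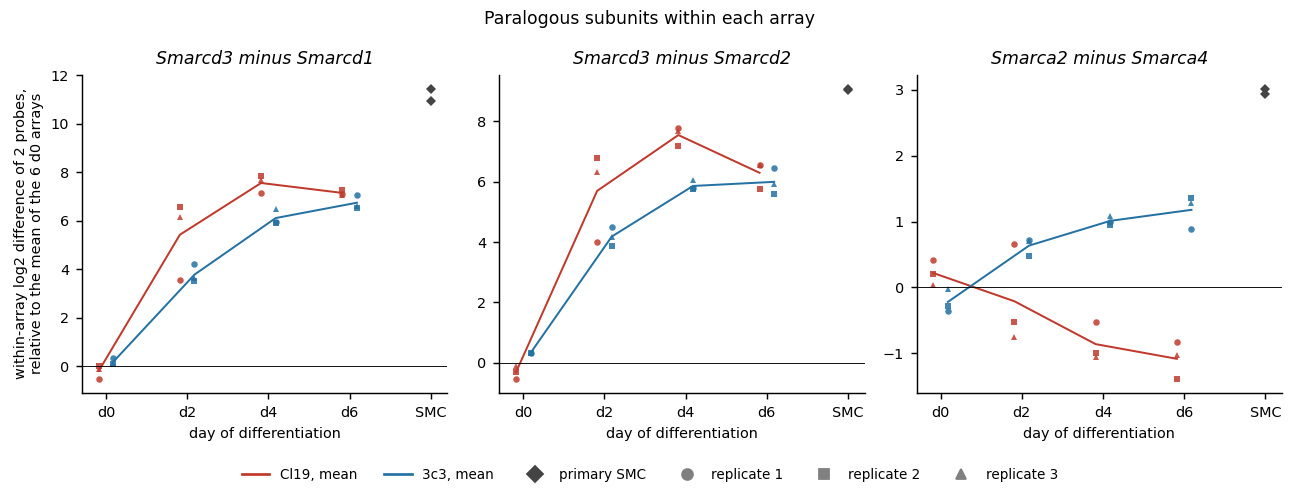
Within-array log2 difference between the brightest probes of 2 paralogs (vertical axis, relative to the mean of the 6 d0 arrays) by day, with 1 symbol per array and lines through group means. Both *Smarcd3* differences rise in both lines, whereas *Smarca2* minus *Smarca4* falls to -1.08 in Cl19 and rises to 1.18 in 3c3 on d6.

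Among the remaining subunits *Smarce1*, which encodes the HMG-box subunit Baf57, rose late. In Cl19 it went from 8.42 ± 0.11 on d0 to 9.57 ± 0.04 on d6 (change 1.16, SE 0.19, adjusted p = 4.5e-05) and in 3c3 from 8.22 ± 0.17 to 8.81 ± 0.04 (change 0.59, adjusted p = 0.015, SD over n = 3). Without the array of 3c3 d0 replicate 1 the 3c3 change was 0.51 and did not pass (adjusted p = 0.066). In 3c3 the means on d2 and d4 were 7.996 and 7.92, so that the rise lay in the last step, which was positive on all 3 slides of each line (0.58 to 1.14 in Cl19 and 0.62 to 1.27 in 3c3). *Smarcb1*, a core subunit, moved the other way in that step, by -0.35 to -0.18 in Cl19 and by -0.66 to -0.32 in 3c3. Its d6 change passed in 3c3 (-0.40, adjusted p = 0.0038, and -0.19 relative to the median of all probes) but not in Cl19 (-0.17, adjusted p = 0.19), and the difference between the lines was 0.23 (adjusted p = 0.36). Under 75th percentile scaling it passed in Cl19 too (-0.52, adjusted p = 0.006), whereas by the methods' t-test after adjustment it did not pass in 3c3.

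*Actl6a*, the actin-related subunit, stayed between 12.08 and 12.64 on every rMAPC array. Its d6 changes were -0.07 in Cl19 (adjusted p = 0.68) and -0.28 in 3c3 (adjusted p = 0.064), and under 75th percentile scaling both passed (-0.41, adjusted p = 0.011, and -0.59, adjusted p = 7.9e-04). *Arid1a*, the ARID subunit, had means of 6.58 to 7.01 and d6 changes of 0.17 and -0.25 (adjusted p = 0.63 and 0.48). Its second probe was well above background on no array and was not tested. *Smarcc1*, a core scaffold subunit, was dim, with d6 changes of 0.19 (adjusted p = 0.75) and -0.78 (adjusted p = 0.15), and on 3c3 replicate 3 the signal failed the background test on d4 and d6. With the slide as a block in the fit, *Smarcc1* (adjusted p = 0.0045) and *Actl6a* (adjusted p = 0.027) also passed in 3c3, as did *Smarcc1* without 3c3 d0 replicate 1 (-1.18, adjusted p = 0.042) and *Actl6a* without 3c3 d6 replicate 1 (-0.36, adjusted p = 0.035).

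Several members ranked the replicates alike in both lines, most clearly the dimmer ones. *Arid1a* was highest in replicate 3 on 8 of the 8 combinations of line and day, *Smarcc1* was lowest in replicate 1 on 8 of 8 and highest in replicate 2 on 7, and *Smarcd1* was lowest in replicate 2 on 7. Of the brighter members, *Smarcd3* and *Smarcb1* were each lowest in replicate 2 on 6. The days of a replicate share a slide, so the 8 combinations are not independent, and how often such agreement arises by chance was not computed. The slides of the 2 lines were different, and whether replicates of a number share anything across lines is not given in the sources used here.

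From d0 to d6, 5 of the 10 members passed in Cl19 (*Smarcd3* and *Smarce1* up, *Smarcd1*, *Smarcd2* and *Smarca2* down) beside 52.2% of all 24442 tested probes. In 3c3, 7 passed (*Smarcd3*, *Smarca2* and *Smarce1* up, *Smarcd1*, *Smarcd2*, *Smarca4* and *Smarcb1* down) beside 48.2% of all probes. The share in Cl19 is near the background and that in 3c3 is 7 of 10. The median change of the members was -0.05 in Cl19 and -0.34 in 3c3, beside -0.20 and -0.21 over all probes. Over all 4 days the F-test called 5 members in Cl19, where 54.3% of probes were called, and 7 in 3c3, where 50% were. In 3c3 that count was 4 without 3c3 d0 replicate 1 or without the slide of replicate 3, with *Smarcd2*, *Smarca4* and *Smarca2* lost each time. By d2, 1 of the 10 passed in each line, *Smarcd3*, beside 22.6% of probes in Cl19 and 19.1% in 3c3. *Smarcd2* was lower on d2 than on d0 on all 3 slides of both lines (-0.24 and -0.29 in the mean, adjusted p = 0.13 and 0.066), and it passed with the slide as a block (adjusted p = 0.025 and 0.0087) and under 75th percentile scaling (adjusted p = 0.038 and 0.036). Without the array labelled Cl19 d2 replicate 1 the count in Cl19 was 2, with *Smarca2*. For the difference between the lines, 1 member passed in the d6 change (*Smarca2*, background 17.4%), and with the slide as a block *Smarcc1* did too (0.97, adjusted p = 0.024). In the d2 change 0 passed by limma (background 0.323%), where 2 had an unadjusted p under 0.05, and both of these, *Smarcd3* and *Smarca2*, passed without that array. On d0 the lines differed in 0 members by limma (background 3.07%), also at an unadjusted p under 0.05, where the methods' t-test had 3 below 0.05 and 0 after adjustment.

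**Figure D3:**
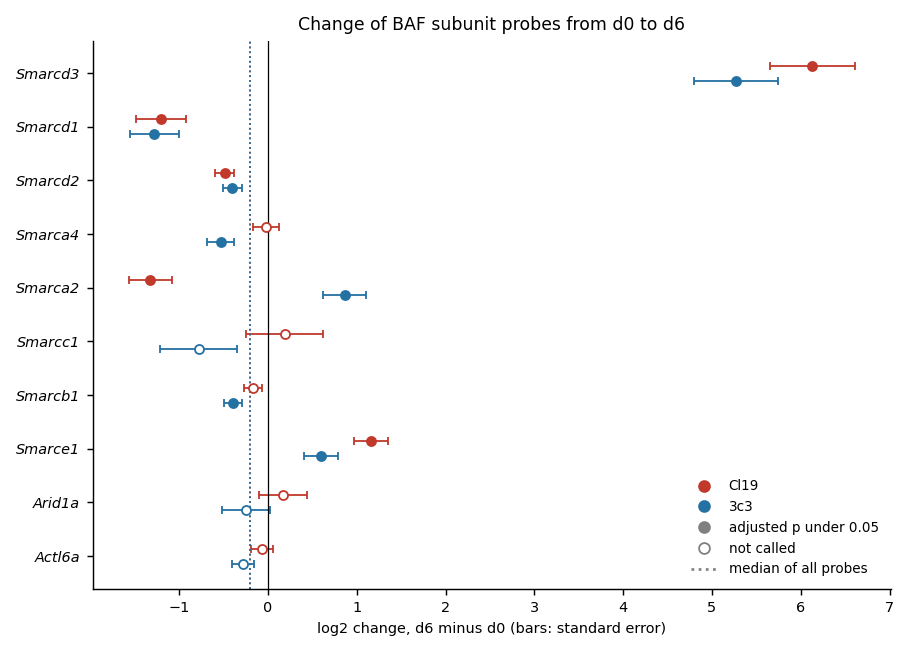
Change of each subunit's brightest probe from d0 to d6 (log2 scale, horizontal axis) in Cl19 and 3c3, with the standard error of the fit as bars, filled symbols for an adjusted p under 0.05 and dotted lines at the medians of all tested probes. *Smarcd3* stands far to the right at 6.13 and 5.27, and *Smarca2* lies on opposite sides of 0.

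In primary SMC the *Smarcd3* and *Smarca2* probes were brighter than in either differentiated line. *Smarcd3* was 14.62 and 14.65 on the 2 arrays, above all d6 arrays, which is 2.66 above Cl19 d6 (SE 0.53, adjusted p = 1.8e-04) and 2.87 above 3c3 d6 (adjusted p = 7.7e-05). *Smarca2* was 9.59 and 9.53, which is 3.00 above Cl19 d6 (adjusted p = 6.6e-09) and 1.31 above 3c3 d6 (adjusted p = 2.4e-04), although without normalization it was 0.51 above Cl19 d6 (adjusted p = 0.072) and 1.04 below 3c3 d6. On the normalized scale the d6 mean of 3c3 lay nearer to the primary SMC level than its d0 mean did, and that of Cl19 lay farther from it.

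*Smarcd1* was not well above background on either primary SMC array. After quantile normalization it was at least 1.75-fold lower there than in Cl19 d6 and at least 2.00-fold lower than in 3c3 d6. For this bound, which has no test, the dim level is set for each array at the higher of its lowest signal well above background and the probe's own signal. The fitted differences without the bound were -1.38 and -1.57 (limma adjusted p = 5.6e-04 and 1.5e-04). Under the alternatives they were as small as -0.45 and -0.48, and the Cl19 one did not pass by the methods' t-test. *Smarce1*, at 7.77 and 7.83, was below every d6 array, with a difference of -1.77 from Cl19 (adjusted p = 4.2e-07) and -1.02 from 3c3 (adjusted p = 3.1e-04), which is the side opposite to its change over the days. *Actl6a* was 11.18 on both arrays with differences from d6 of -1.21 and -1.08 (adjusted p = 1.8e-07 and 7.5e-07), and *Arid1a* was 5.74 and 5.19, with differences of -1.55 and -1.12 (adjusted p = 1.4e-04 and 0.0027).

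*Smarca4* was 11.35 and 11.37 in primary SMC, with differences of -1.05 from Cl19 d6 (adjusted p = 1.5e-05) and -0.48 from 3c3 d6 (adjusted p = 0.016). The latter did not pass without primary SMC replicate 1 (adjusted p = 0.068) or replicate 2 (adjusted p = 0.059), and the *Arid1a* difference from 3c3 d6 did not without replicate 2 (-0.84, adjusted p = 0.06). The second *Smarca4* probe gave there -0.81 (adjusted p = 0.0012) and -0.23 (adjusted p = 0.32). *Smarcb1* was 13.61 and 13.60, 0.25 above Cl19 d6 (adjusted p = 0.067) and 0.55 above 3c3 d6 (adjusted p = 3.3e-04), but below both without normalization. *Smarcc1* was 5.15 and 5.39, with differences of 0.80 (adjusted p = 0.15) and 1.59 (adjusted p = 0.0064), also negative without normalization. *Smarcd2* differed by -0.11 and -0.20 and did not pass (adjusted p = 0.42 and 0.15), whereas under 75th percentile scaling it was 0.60 and 0.45 higher and passed. In all, 7 members passed against Cl19 d6 and 9 against 3c3 d6, beside 71.4% and 71.5% of all probes, so that a called difference from primary SMC is common on these arrays.

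The primary SMC arrays were much dimmer before normalization. The median difference of all probes from d6 was -2.17 for Cl19 and -2.09 for 3c3 without normalization and -0.13 for each line with it. Differences from primary SMC therefore hold relative to the rest of the array. *Smarcd3* was higher in primary SMC under quantile normalization, 75th percentile scaling (3.75 and 3.86) and no normalization (1.38 and 1.56).

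**Figure D4:**
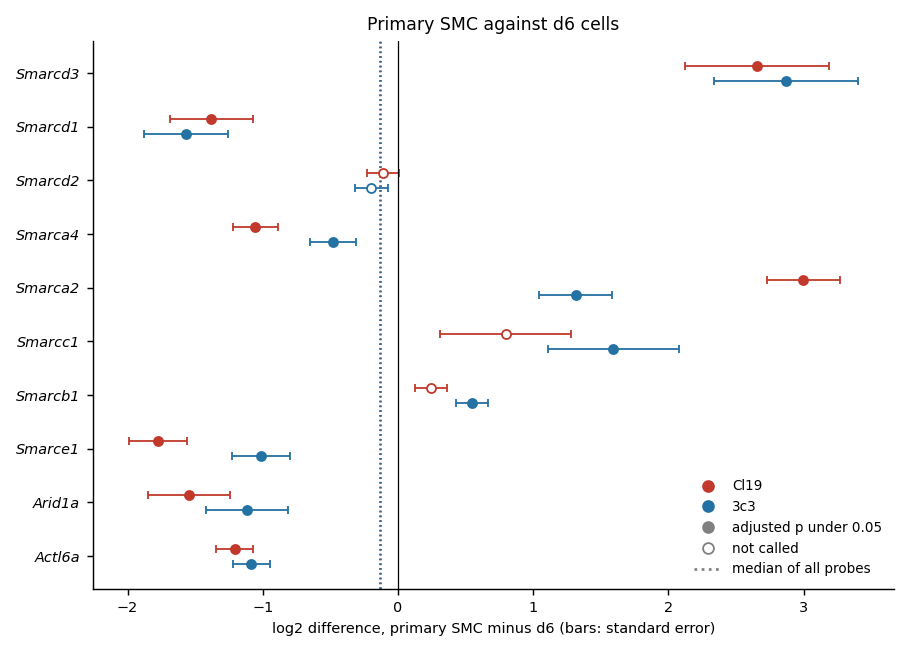
Difference of primary SMC from d6 cells of Cl19 and of 3c3 (log2 scale, horizontal axis) for each subunit's brightest probe after quantile normalization, with standard errors as bars and dotted lines at the medians of all probes. *Smarcd3* and *Smarca2* lie to the right of 0, whereas *Smarce1*, *Arid1a*, *Actl6a*, *Smarca4* and *Smarcd1* lie to the left. The *Smarcd1* probe was not well above background in primary SMC, and its plotted difference is a fitted value.

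Of the other SWI/SNF subunits, 18 genes were on the array and 14 were tested. In Cl19 2 rose and 0 fell by d6, with 12 not called, and in 3c3 2 rose and 4 fell. These are 2 and 6 of 14, beside the 52.2% and 48.2% of all probes called. The same 2 rose in both lines. *Smarcc2*, which encodes Baf170 and is the paralog of *Smarcc1*, had changes of 0.52 (Cl19, adjusted p = 0.031) and 0.89 (3c3, adjusted p = 9.5e-04), and *Actb*, which encodes beta-actin, both a subunit and a major cytoskeletal protein, of 0.62 (adjusted p = 5.5e-05) and 0.30 (adjusted p = 0.025). The median change of the list was -0.09 in Cl19 and -0.29 in 3c3.

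Of 31 tested subunits of other remodeler families, 8 rose and 7 fell in Cl19 and 3 rose and 11 fell in 3c3, shares close to the 52.2% and 48.2% of all probes called, with 2 up and 6 down in both. *Mta3* (1.17 and 0.63) and *Gatad2b* (0.84 and 0.74), both of the NuRD complex, rose in both lines. *Hells* (-1.88 and -1.83), a SNF2-family helicase, and *Ruvbl1* (-1.23 and -1.67), an AAA+ ATPase of the INO80 and SRCAP complexes, had the largest falls shared by both lines. The list's median change was -0.07 in Cl19 and -0.29 in 3c3.

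Among factors known to work with BAF complexes in muscle or downstream of TGF-β, 8 were tested, of which 3 rose and 3 fell in Cl19 and 2 rose and 3 fell in 3c3, beside the same background. *Mkl1*, a coactivator of serum response factor, rose by 1.29 in each line. *Nkx2-5*, a cardiac homeodomain factor, was well above background on no d0 array and rose at least 34.6-fold in Cl19 and at least 1.69-fold in 3c3. *Gata6* (-3.31 and -1.47), a zinc finger factor of endoderm and heart that also stands in the list of progenitor markers, and *Smad2* (-1.10 and -0.89), a transducer of TGF-β, fell in both. Of the proliferation genes, *Ccna2*, which encodes cyclin A2, (-2.74 and -2.18), and *Aurkb*, which encodes Aurora kinase B (-2.21 and -1.68), fell in both. These fell over the same days as *Smarcd1*, and their part in that result was not tested.

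Across the 26 arrays the genes whose brightest probe was most like *Smarcd3* were *Pdlim1* (Pearson r = 0.966), *Tgfb1i1* (0.965), *Tagln* (0.960), *Tns1* (0.956) and *Glipr1* (0.954), of 11120 genes compared. The arrays share slides and days, and these values are a description without a test. Within a line, over its 12 arrays, *Smarca2* had r = -0.82 with *Smarcd3* in Cl19 and 0.91 in 3c3, whereas *Smarcd2* had -0.87 and -0.78, and *Smarcd1* -0.28 and -0.72. Without the array labelled Cl19 d2 replicate 1, a choice made after seeing the data, the Cl19 values over 11 arrays were -0.87, -0.87 and -0.27.

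For *Smarcd3*, the member with the largest change in cells given TGF-β, the 250 bases upstream of both annotated starts of the gene are given from RefSeq, on the plus strand of build GRCr8, which is not the build of the array's coordinates. All 10 members matched an entry. Capitals mark CAGAC and its reverse complement GTCTG, letters that SMAD proteins, the transducers of TGF-β, are known to bind.

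Smarcd3, first start, chr4:11440950-11441199: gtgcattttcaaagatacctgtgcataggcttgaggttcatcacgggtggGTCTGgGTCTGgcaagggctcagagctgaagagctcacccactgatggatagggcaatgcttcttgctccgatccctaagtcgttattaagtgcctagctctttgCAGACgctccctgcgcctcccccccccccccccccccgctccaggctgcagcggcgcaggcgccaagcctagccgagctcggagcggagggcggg
Smarcd3, second start, chr4:11463026-11463275: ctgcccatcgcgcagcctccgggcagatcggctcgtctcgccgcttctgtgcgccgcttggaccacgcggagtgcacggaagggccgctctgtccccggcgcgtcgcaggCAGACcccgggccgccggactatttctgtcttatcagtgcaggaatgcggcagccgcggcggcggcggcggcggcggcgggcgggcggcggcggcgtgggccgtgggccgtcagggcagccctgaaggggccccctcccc

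The first window held 3 matches and the second 1, with no overlap between matches, and the windows of the other 9 members held 0. Of 33469 windows of 250 bases upstream of rat genes, 42.9% held at least 1 match. The CArG box, the motif of serum response factor, was searched on both strands as well, and it was in no window of a member and in 1.5% of all windows. A match in these letters is not a binding site, and its absence from this window says nothing about the factor. The study reported that deleting SMAD-binding elements of the *Smarcd3* promoter lowered the TGF-β response of a reporter. At the position it gives, those elements lie farther upstream, outside these windows.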

How the data were processed

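RNA of 26 samples in 9 groups was labeled with Cy3 and hybridized to 1 Agilent rat array each. The deposited intensity of every feature had been corrected for background by the scanner software, Agilent Feature Extraction 10.1.1.1 per the submitters' processing notes. The authors also deposited a table of log2 values, which equals the log2 of the intensity to within 5.2e-14 and is not normalized between arrays.

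As in the study's methods, quantile normalization was applied to the log2 intensity of 43379 gene features, which removes a change shared by most genes. Features flagged as outliers were then left out, and features of a probe were averaged (41012 probes). The test took the 24442 probes that all arrays of some group detected well above background, and was made with limma 3.58.1 (R 4.3.3) in 1 fit over the 9 groups, with Benjamini-Hochberg adjustment over all of them and a threshold of 0.05. The number of arrays limits precision. The script was tested on simulated data. Python 3.11.15 read the files and drew the figures.

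Replicate numbers marked slides per the file headers, and deviations from group means correlated by over 0.1 within slides in 16 of 18 pairs of arrays in Cl19 (lowest 0.06) and 18 of 18 in 3c3 (lowest 0.20). Members were named by the symbol in the files. Other probes were named by RefSeq accession first and otherwise by that symbol, and genes of the lists were matched by either name. The rule for named genes took all members, other subunits called in the same direction in both lines, at most 2 genes up and 2 down per other list, and the 5 genes most like *Smarcd3*. Members and lists were chosen with earlier results of these data known. Alternatives were other scalings and background corrections, filters, blocks, probe choices, a fit per line, the methods' t-test and leaving out arrays. No genome of build rn4 and no protein sequences were used here.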

Additional observations from a re-analysis of the deposited data

Results flagged for a closer look

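The d6 change of *Smarca2* differed between the lines by -2.19 on the log2 scale (Cl19 minus 3c3, SE 0.34, limma adjusted p = 1.4e-04). All 3 slides of Cl19 moved down and all 3 of 3c3 moved up. Leaving out 1 array at a time kept the difference between -2.40 and -1.96, and the other alternatives between -2.26 and -1.50. The lines were scanned on different days. Each slide held d0 and d6 of its own line in the same order of positions. The part of scan day and position in this difference was not tested. The groups held 3 or 2 arrays each, too few for a search for single outlying arrays.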

How the results depend on the processing

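Of 1266 values of single members under the alternatives, 1249 kept their direction and 1175 also their side of the threshold. The F-test values have no direction and the replicate block leaves a change as it was, so direction was kept there by construction. Of 266 counts and paralog values, 246 were taken as unchanged. A count was taken so when it lay near its main value, as with 5 to 9 members by d6 in 3c3 beside 7. Counts of members called by d2 rose from 1 in Cl19 to 2 under 75th percentile scaling, the replicate block (slide as a fixed block) and slide as a random block, and to 3 by the methods' t-test; in 3c3 they rose to 2 under the same settings, without normalization, with normexp and in a fit per line, and to 3 by the t-test. The added member was *Smarcd2*, or *Smarca2* without normalization and in the fit per line. The t-test added *Smarcb1* with *Smarcd2* (Cl19) or *Smarca4* (3c3). By d6 in 3c3 the t-test lost *Smarcd2* and *Smarcb1*. For primary SMC against Cl19 d6 it lost *Smarcd1* and *Arid1a* and added *Smarcd2* and *Smarcc1*, and against 3c3 d6 it lost *Smarcb1*. In the d6 difference between the lines, 2 passed with the replicate block (*Smarcc1* added) and with the random block (*Smarca4* added). By d6, 75th percentile scaling added *Smarcb1* and *Actl6a* in Cl19 and *Actl6a* in 3c3. Over time, 8 passed in Cl19 under it and 4 in 3c3 without the slide of 3c3 replicate 3. With the replicate block 9 members passed by d6 in 3c3, and *Smarcb1* over time in Cl19 and *Smarcc1* in 3c3; it changed no other call of members. Leaving out 1 array gave 1 to 2 members by d2 in each line, 0 to 2 in the d2 difference between the lines (the 2 without the array labelled Cl19 d2 replicate 1) and 4 to 7 over time in 3c3 (the 4 without 3c3 d0 replicate 1). It moved *Smarca2* minus *Smarca4* between -0.014 and 0.12, *Smarca4* by d6 in Cl19 between -0.21 and 0.080 and *Arid1a* between -0.12 and 0.38. Signs also turned for *Smarcd2* against primary SMC under 75th percentile scaling (0.60 for Cl19, adjusted p = 0.008, and 0.45 for 3c3, adjusted p = 0.037) and with its next brightest probe (0.061 and 0.014, and 0.032 and 0.027 for its d6 and d2 changes in 3c3), for *Arid1a* by d6 in 3c3 without normalization (0.10), and for *Smarca4* by d6 in Cl19 with normexp (0.024). Without normalization primary SMC turned to -1.46 (Cl19) and -0.50 (3c3) for *Smarcc1*, -1.37 and -1.03 for *Smarcb1*, and -1.04 (3c3) for *Smarca2*. The causes were not tested. Without normalization the median d6 change of all probes was 0.10 in Cl19 and 0.09 in 3c3, and of called probes 55.7% and 56.4% were higher, against 42.1% and 40.7% after quantile normalization; by d2 64.9% and 78.1% against 49.3% and 51.4%; in primary SMC 8.3% and 9.5% against 45.9% and 46.7%, or 56.7% against Cl19 with a floor; and for the d2 difference between the lines 26.8%, or 27.7% with normexp, against 43%. Dim signal limits *Smarcc1* and *Smarcd1*.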
